A study of Mus musculus with 66 samples.

Results

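The miR-122 hairpin was followed through its 2 mature products, mmu-miR-122-5p and mmu-miR-122-3p, in mouse plasma. The mice had hepatocellular carcinoma (HCC), were free of it, or were bled before it was detected. Members were taken by name: 2 of the 1826 miRNAs in the table of C3H mice and 2 of the 1885 miRNAs in the table of F2 mice. The gene was placed by GRCm38 with GENCODE M21: Mir122 spans 65248861 to 65248926 of chromosome 18, plus strand, where an exon of the lincRNA AC157910.3 (65245359 to 65252621) contains it. The C3H table held 8 male C3H mice with HCC and 5 male C3H mice without it (non-HCC), all labelled as more than 12 months after radiation and 0 days before tumor detection. Plasma came from cardiac puncture at necropsy, and the methods state that the HCC group mixed spontaneous and radiation-induced tumours, which the labels do not separate. The F2 table held 53 plasma libraries from 15 HCC-carrying F2 mice of both sexes, progeny of BALB/c females and C3H males. All F2 labels give more than 0 days before tumor detection, so this plasma was drawn before the tumours were found. Tail vein blood was drawn at months 1, 6, 12 and 18 of follow-up from irradiation, and the column names tie no library to a mouse or a month. Values are counts of unique molecular indexes (UMIs), the barcodes that mark each captured molecule, and synthetic spike-ins UniSP2 and UniSP4 were added before RNA isolation. In each C3H library UniSP2 had far more UMIs than UniSP4, so the mean of both, used as the scale below, is nearly UniSP2 alone. The C3H libraries held 9513136 to 14247488 miRNA UMIs, with no value between 0 and 10. The F2 libraries were shallower, at 205194 to 3020311 miRNA UMIs. The libraries HCC 1 and 6, HCC 2 and 5, and HCC 3 and 7 were the 3 most alike of all 78 C3H pairs, with standard deviations of their log2 ratios over abundant miRNAs of 0.148, 0.249 and 0.228, against 0.362 for the next pair. They differed by more than sampling noise (chi-square per degree of freedom 31.9 to 63.7), which cannot tell separate mice from repeat libraries. The labels give each library its own mouse number, so they were kept as separate mice, and results are also given with each pair summed. Nothing in the labels says whether these are litter or cage mates, and p-values measure the spread between these samples. Whether any pair is a repeat library was not tested.

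miR-122 is the dominant miRNA of hepatocytes, where it acts on genes of cholesterol and lipid metabolism, and it is released into blood when liver cells are damaged. The hairpin is cut by Dicer into a duplex. The 5p arm is the guide that Argonaute retains, while the 3p arm is the passenger strand, which is mostly degraded.

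A set of 4 other miRNAs is shown by sequence because their levels were among the 10 most like that of miR-122-5p on both scales used below. The sequences are from RefSeq (GRCm38.p6, 4 of 4 matched), written 5′ to 3′, and the capitals mark the seed, bases 2 to 8, which pairs with targets.
mmu-miR-148a-3p: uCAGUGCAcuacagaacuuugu
mmu-miR-152-3p: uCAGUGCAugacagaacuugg
mmu-miR-194-5p: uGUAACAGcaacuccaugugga
mmu-miR-28a-3p: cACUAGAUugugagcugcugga
The miR-148a-3p and miR-152-3p sequences share the seed CAGUGCA although they are encoded apart, at chr6:51269829-51269850 on the minus strand and chr11:96850439-96850459 on the plus strand. miR-194-5p has 2 copies, at chr1:185313325-185313346 and chr19:6264658-6264679, and miR-28a-3p lies at chr16:24827908-24827929, all on the plus strand.

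Every HCC mouse carried more miR-122-5p than every non-HCC mouse, and the HCC mice differed widely among themselves. In HCC mice 1 to 8 the guide arm had 4184602, 4166263, 229906, 1197518, 3957843, 4157290, 282512 and 1690800 UMIs. In non-HCC mice 1 to 5 it had 23049, 45187, 44342, 24359 and 30905 UMIs. HCC 3 and HCC 7 were lowest of the tumour-bearing mice and still lay above the highest mouse without HCC. By abundance, miR-122-5p ranked 1 among all miRNAs in HCC 1, 2, 5 and 6, 2 in HCC 4 and 8, and 10 and 9 in HCC 3 and 7. In non-HCC mice its rank was between 30 and 53. The log2 level, UMIs scaled by the mean spike-in count, of the HCC mice was 20.77 ± 2.60 (SD, n = 8) and that of the non-HCC mice 14.68 ± 0.59 (SD, n = 5), so that they differed by 6.09 (p = 0.00233, exact two-sided permutation over 1287 splits, which can give no p below 0.000777). In an edgeR quasi-likelihood fit over all miRNAs, scaled by the spike-ins, the fold change of HCC over non-HCC was 7.34 ± 1.17 in log2 (standard error, adjusted p = 0.0030). That was the smallest p of 1452 miRNAs tested, of which 109 (7.51%) passed an adjusted p of 0.05, all higher in HCC. By edgeR 0 of the 1452 passed as lower, against 3 with a negative fold change and an unadjusted p under 0.05. DESeq2 with spike-in size factors called 2 lower.

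The passenger arm rose beside the guide at a far lower level. miR-122-3p had 1027, 2613, 90, 771, 2554, 953, 91 and 668 UMIs in HCC mice 1 to 8. It had 25, 37, 25, 17 and 27 UMIs in non-HCC mice 1 to 5, so all 8 HCC mice lay above all 5 others. On the spike-in scale 22 of 1452 miRNAs tested (1.52%) separated the groups without overlap, both arms among them. The log2 level of the passenger arm differed by 5.08 (p = 0.0039, exact two-sided permutation). In edgeR its fold change was 6.72 ± 1.24 in log2 (standard error, adjusted p = 0.0057), at rank 3 by p. With the similar HCC libraries summed (n = 5 against 5) the fold changes were 7.08 for the guide and 6.49 for the passenger arm (adjusted p = 0.00087 and 0.0039, edgeR), where 97 of 1401 miRNAs (6.92%) were called higher. Both arms passed in each of the 13 fits that left out 1 mouse, with log2 fold changes from 6.99 to 7.53 for 5p and from 6.18 to 6.95 for 3p.

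**Figure D1:**
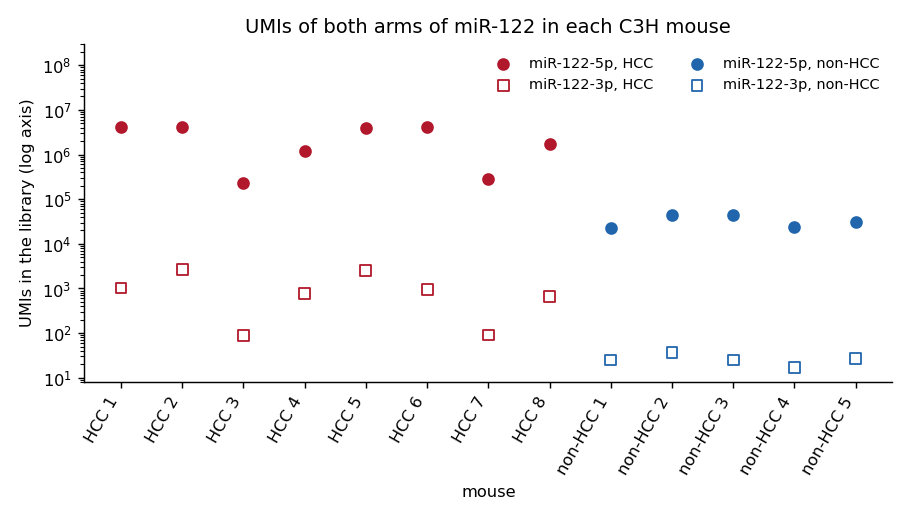
UMIs of miR-122-5p (filled circles) and miR-122-3p (open squares) in each C3H mouse, on a log axis, with HCC mice in red and non-HCC mice in blue. Both arms lie higher in each of the 8 HCC mice than in any of the 5 non-HCC mice, and HCC 3 and 7 are the lowest HCC mice for both.

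The ratio of the arms needs no library scale, since both are counted in the same library. Each 3p UMI stood beside 4075, 1594, 2555, 1553, 1550, 4362, 3105 and 2531 UMIs of 5p in HCC mice 1 to 8. The ratios were 922, 1221, 1774, 1433 and 1145 in non-HCC mice 1 to 5. HCC 1, 3, 6, 7 and 8 lay above all non-HCC mice, while HCC 2, 4 and 5 lay inside their range. The log2 ratio (1 added to each arm) averaged 11.26 ± 0.61 (SD, n = 8) over HCC mice against 10.25 ± 0.35 (SD, n = 5) over the others. The difference of 1.01 passed the exact two-sided permutation test (p = 0.0101, or 0.0238 for a difference of 0.95 with similar libraries summed). Among hairpins at large it did not pass: a limma fit of the log2 ratio over 405 hairpins with both arms listed gave the same difference with a standard error of 0.34 and an adjusted p of 0.088. In that fit 20 hairpins (4.94%) passed, 8 with a higher and 12 with a lower ratio, and 35.1% of hairpins had a larger absolute difference than miR-122. The number depended on the libraries and design: 5 of 384 hairpins (1.3%) passed with similar libraries summed, 1 without non-HCC 4 and 0 with the replicate number as a block, against 83 at an unadjusted p under 0.05 in that last limma fit. HCC 6, 7 and 8 have no non-HCC mouse of the same number, so that fit leaves them out of the difference.

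The precision of the ratio was set by the passenger arm. In non-HCC 4, with 17 UMIs of 3p, the 95% exact (Clopper-Pearson) interval ran from 895 to 2460 UMIs of 5p for each UMI of 3p. In HCC 2, with 2613, it ran from 1534 to 1657. These intervals cover counting error only. HCC 1 and 6 at 4075 and 4362 and HCC 2 and 5 at 1594 and 1550 had intervals far apart, although all 4 had 3957843 to 4184602 UMIs of 5p. Those were the highest entries of the whole C3H table, where no other miRNA exceeded 3878330. Whether the count of so abundant an miRNA levels off in these libraries was not tested.

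Hairpins with the smallest p in the fit of all 13 mice were of other families. The 5 with the strongest rise toward 5p were miR-335, miR-615, miR-463, miR-375 and miR-361. The ratio of miR-335 was 2.14 higher in log2 (limma adjusted p = 0.0015). The 5 with the strongest fall were miR-29c, miR-26b, miR-1947, miR-150 and miR-130a. The ratio of miR-26b fell by 2.41 (limma adjusted p = 0.0229), from 10.45 in non-HCC to 8.05 in HCC mice, and that of miR-150, a lymphocyte miRNA, fell by 1.58 (limma adjusted p = 0.0229). Among hairpins of the liver miRNAs listed below, the differences of miR-192, miR-802 and miR-193a were 0.74, −0.52 and 0.53 with limma adjusted p of 0.16, 0.19 and 0.43.

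**Figure D2:**
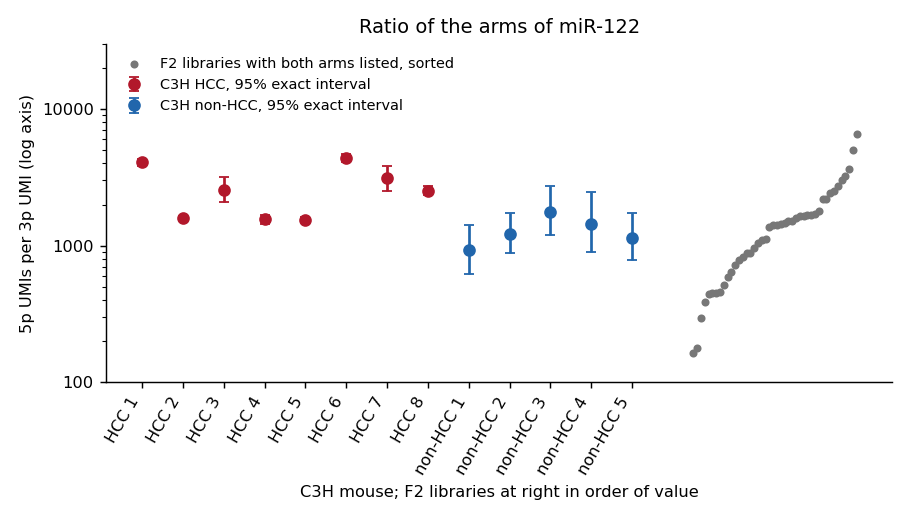
UMIs of miR-122-5p for each UMI of miR-122-3p, on a log axis. C3H mice carry 95% exact intervals for counting error, and the 44 F2 libraries in which both arms were listed are sorted by value at right. Of the 8 HCC mice 5 lie above all non-HCC mice, and the F2 libraries span the range of both groups.

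In HCC mice this miRNA alone took a large part of the library. miR-122-5p made up 41, 29.2, 2.20, 9.53, 28.3, 42.7, 2.39 and 17.8% of miRNA UMIs in HCC mice 1 to 8. In the 5 non-HCC mice it made up 0.211, 0.326, 0.424, 0.180 and 0.221%. The groups did not overlap, at 21.6 ± 16.2% (SD, n = 8) against 0.272 ± 0.101% (SD, n = 5), a difference of 21.4 percentage points (p = 0.0109, exact two-sided permutation). As a share of the library, 61 of the 1452 miRNAs tested (4.2%) were higher in every HCC mouse than in every non-HCC mouse. With similar libraries summed the difference was 19.8 percentage points (p = 0.0079, exact two-sided permutation over 252 splits).

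The UMIs left for other miRNAs were fewer. Outside the hairpin, HCC mice 1 to 8 had 6025784, 10078612, 10216752, 11374012, 10016611, 5577359, 11543103 and 7821668 miRNA UMIs. The non-HCC mice had 10886395, 13820125, 10423193, 13505601 and 13931607. Of the HCC mice 6 lay below every non-HCC mouse, and HCC 4 and 7 did not. The log2 difference was −0.50 (p = 0.0264, exact two-sided permutation). Divided by the spike-in count of each library, the same total differed by −0.017 (p = 0.98, exact two-sided permutation), with SDs of 1.05 in HCC and 0.53 in non-HCC mice. Leaving out HCC 8, non-HCC 2, non-HCC 4 or non-HCC 5 raised p above 0.05 for the unscaled difference (p = 0.051, 0.069, 0.067 and 0.073, exact two-sided permutation).

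**Figure D3:**
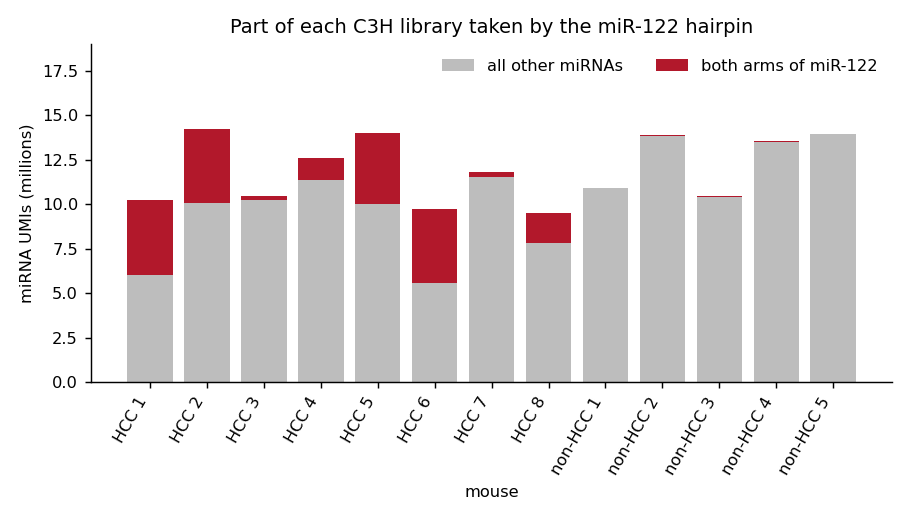
miRNA UMIs of each C3H library, in units of 1000000, split into both arms of miR-122 (red) and all other miRNAs (grey). The hairpin takes over 9% of the library in HCC 1, 2, 4, 5, 6 and 8 and under 3% in HCC 3, HCC 7 and the 5 non-HCC mice.

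A scale per 1000000 miRNA UMIs therefore lowers every other miRNA by a known amount in each library. That shift was −0.76, −0.50, −0.03, −0.14, −0.48, −0.80, −0.03 and −0.28 in log2 for HCC mice 1 to 8. In no non-HCC mouse did the hairpin reach 1% of the library. Scaled by total miRNA UMIs, edgeR gave a median log2 fold change of 0.37 over the other miRNAs tested, with 123 called higher and 32 lower in HCC. Leaving both arms out of the total moved the median to 0.77, with 167 called higher (11.5% of 1452) and 10 lower. The spike-in scale gave a median of 0.78 and called 109 higher and 0 lower. UniSP2 made up nearly all of that scale (in HCC 2, 175009 UMIs against 225 of UniSP4), and UniSP2 alone called 109 as well. UniSP4 alone gave a median of 0.87, with 130 higher and 1 lower. TMM, which trims extreme miRNAs before it sets the scale, gave a median of 0.17 with 107 higher (7.37%) and 32 lower (2.2%). Computed without both arms, TMM gave 0.22, with 117 higher and 22 lower. The log2 fold change of miR-122-5p was between 6.26 and 7.34 over these scales and that of miR-122-3p between 5.40 and 6.72, and both were called under each.

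**Figure D4:**
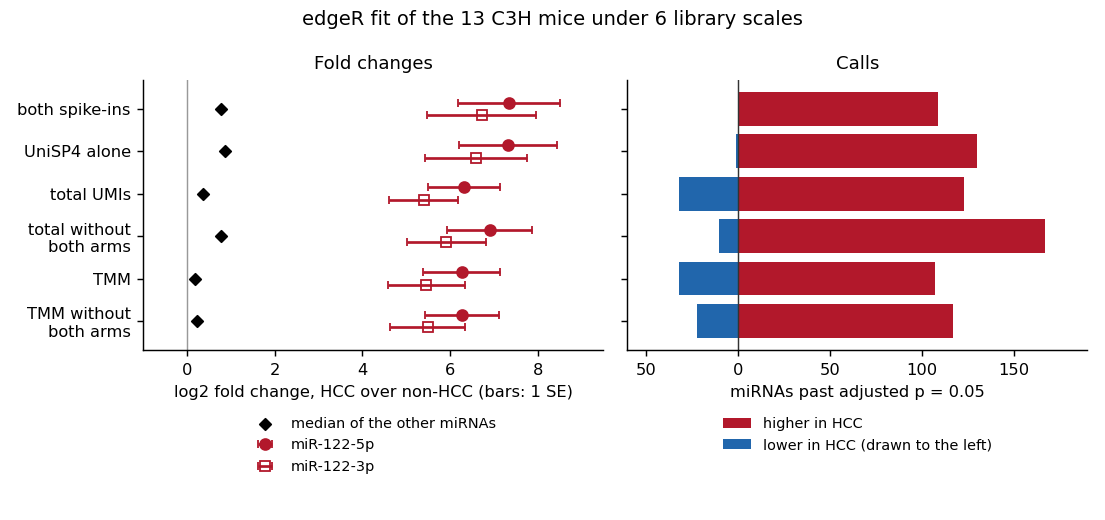
Left, log2 fold change of HCC over non-HCC mice for both arms of miR-122 with 1 standard error, and the median of all other miRNAs tested, under 6 library scales in edgeR. Right, the number of miRNAs called higher (to the right) and lower (to the left). The mean of both spike-ins is nearly all UniSP2. The arms stay above 5 in log2 under each scale, whereas the number called lower is 0 with both spike-ins and 32 with total UMIs or TMM.

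Across the 8 HCC mice the passenger arm followed the guide. On the spike-in scale the log2 levels of the arms had Pearson r = 0.977 (p = 0.00017, adjusted p = 0.0012, exact permutation over 40320 pairings) and Spearman rho = 0.952 (p = 0.0011, adjusted p = 0.0027, exact permutation). Without HCC 3 and 7, farthest from the median, r was 0.907. The relation was 1 of 7 computed on that scale. These p-values count 8 mice as independent and take no account of the spike-in divisor that both arms share. Of 750 miRNAs, 99.1% had r above 0 to miR-122-5p on that scale, with a median of 0.772, and miR-122-3p ranked 20. With similar libraries summed r between the arms was 0.974 over 5 units, whose 120 pairings could give no p below 0.0083, so no test was made. Scaled per 1000000 UMIs outside the hairpin, r was 0.955 (p = 0.0025, adjusted p = 0.0088, exact permutation) and rho 0.786 (p = 0.028, adjusted p = 0.065, exact permutation). Without HCC 3 and 7 that r was 0.755, and with similar libraries summed 0.949. The HCC and non-HCC mice form separate clusters, so no r was computed over all 13, and the 5 non-HCC mice were too few for one. The HCC mice themselves mix spontaneous and radiation-induced tumours. The study reports higher plasma levels of the guide arm with radiation-induced than with spontaneous tumours. The labels do not separate these classes, so their part in any r or rho over the HCC mice was not tested.

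Other liver miRNAs went with miR-122-5p. A list of 13 mature liver miRNAs had a mean log2 level that followed it on the spike-in scale (r = 0.954, p = 0.00072, adjusted p = 0.0025, exact permutation) with rho = 0.976 (p = 0.0004, adjusted p = 0.0027, exact permutation). Per 1000000 UMIs outside the hairpin, r was 0.966 (p = 0.0011, adjusted p = 0.0076, exact permutation) and rho 0.929 (p = 0.0022, adjusted p = 0.016, exact permutation). Without HCC 3 and 7 the values of r were 0.843 and 0.828 on these scales, and with similar libraries summed 0.929 and 0.939 (5 units, no test). On each scale the list and miR-122-5p share a divisor, which the permutation does not keep. Over 750 single miRNAs the median r to miR-122-5p was 0.772 and 0.403, so the p-values do not show a tie particular to liver miRNAs. In the edgeR fit 9 of the 13 were called higher, against 7.51% of all miRNAs tested, and 0 lower, with a median log2 fold change of 3.42 against 0.78 over all other miRNAs. With similar libraries summed 9 were called as well (6.92% of all). The list was chosen with earlier results of these data known, so its counts and p-values are not independent evidence. DESeq2 on the spike-in scale called 11 of the 13 and 183 of the 887 miRNAs to which it gave an adjusted p (20.6%), and limma called 3 of the 13 and 44 of 1452 (3.03%).

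The members ranged from abundant to rare. miR-192-5p, made in liver and gut, had 148990 to 861277 UMIs in HCC and 40027 to 62993 in non-HCC mice (log2 fold change 4.51, adjusted p = 0.0057, edgeR). miR-802-3p, from a liver-enriched hairpin, had 74 to 722 UMIs in HCC against 25 to 38 in non-HCC mice (log2 fold change 4.85, adjusted p = 0.0057, edgeR). miR-148a-3p, abundant in hepatocytes, had 32772 to 236314 UMIs against 11629 to 24581 (log2 fold change 3.80, adjusted p = 0.012, edgeR). For miR-194-5p the ranges were 20512 to 149125 and 8631 to 16324 UMIs (log2 fold change 3.87, adjusted p = 0.012, edgeR). In UMIs, 7 of the 13 were higher in every HCC mouse than in every non-HCC mouse, these 4 among them, against 47 of the 1452 miRNAs tested (3.24%). On the spike-in scale only miR-192-5p of the 13 separated the groups (1.52% of all), and the mean log2 level of the list overlapped, at 10.32 to 14.83 in HCC and 9.93 to 11.10 in non-HCC mice. miR-215-5p, miR-101a-3p, miR-101b-3p and miR-378a-3p did not pass, with log2 fold changes of −0.0029, 0.81, 2.21 and 1.79 (adjusted p from 0.12 to 0.999, edgeR). The sign for miR-215-5p changed with the scale and with the mouse left out, and DESeq2 with its own size factors called it lower (−0.58, adjusted p = 0.0040). Calls of miR-193a-3p and miR-365-3p were lost when non-HCC 1, 2, 3 or 4 was left out, with adjusted p from 0.050 to 0.067 (edgeR).

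Lists for other cells of blood and tissue, also chosen with earlier results of these data known, were read beside the guide arm. The red cell list of 6 made up 11.7 to 40.4% of UMIs outside the hairpin in HCC and 36.6 to 39.1% in non-HCC mice. Its member miR-16-5p alone averaged 21.4% of these UMIs in HCC and 27.7% in non-HCC mice. For miR-451a, also a member, the means were 3.30% and 7.04%. miR-486b-5p, at 9.97% and 13.3%, was not on the list. Whether the list total measures RNA from red cells was not tested. The list of 5 platelet and leukocyte miRNAs made up 1.52 to 3.60% against 2.76 to 4.92%, and that of 5 muscle miRNAs 0.0669 to 1.62% against 0.0738 to 0.370%. No member of the 3 lists was listed at 0 in any C3H mouse. On the spike-in scale 0 of the 16 members passed with all 13 mice in edgeR or in limma, with miR-150-5p (lower) and miR-208b-3p (higher) at an unadjusted p under 0.05 in edgeR and past the threshold in DESeq2. Under TMM 4 of the 5 platelet and leukocyte miRNAs were called lower (2.2% of all miRNAs tested), as were 3 of the 5 by total UMIs without both arms (0.689% of all). With similar libraries summed edgeR called miR-208b-3p higher on the spike-in scale (log2 fold change 2.91, adjusted p = 0.044). With the spike-in scale, r to miR-122-5p was 0.292 for red cells, 0.725 for platelets and leukocytes and 0.209 for muscle (adjusted p = 0.55, 0.098 and 0.64, exact permutation). The rho values were 0.357, 0.929 and 0.238 (adjusted p = 0.45, 0.0039 and 0.58, exact permutation). These lists also share the spike-in divisor with miR-122-5p, and the median rho over 750 single miRNAs on that scale was 0.762. Without HCC 3 and 7 the values of r were 0.433, 0.525 and −0.18, and with similar libraries summed 0.281, 0.653 and 0.147 (5 units, no test). Scaled per 1000000 UMIs outside the hairpin, r was −0.64, 0.404 and −0.44 in the same order (adjusted p = 0.099, 0.33 and 0.33, exact permutation), with rho of −0.62, 0.524 and −0.74 (adjusted p = 0.13, 0.20 and 0.080). Fewer cells of a type and less RNA released by each cannot be told apart in plasma.

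The scale itself went with the guide arm. The spike-in count by which the level is divided had r = −0.90 (p = 0.0038, adjusted p = 0.0089, exact permutation) and rho = −0.95 (p = 0.0011, adjusted p = 0.0027, exact permutation) to it, with r = −0.87 without HCC 3 and 7 and −0.78 with similar libraries summed. It was 83039 to 87617 UMIs in HCC 2 and 5 and 437952.5 to 469953 in HCC 3 and 7. A level set against its own divisor tends to a negative r, so these p-values do not test a relation beyond that. Any miRNA divided by the spike-in count shares it with miR-122-5p. The total outside the hairpin had r = −0.41 (adjusted p = 0.41, exact permutation) and rho = −0.48 (adjusted p = 0.34, exact permutation). On the scale per 1000000 UMIs outside the hairpin, the spike-in count had r = −0.69 and rho = −0.64 (adjusted p = 0.099 and 0.13, exact permutation). The total outside the hairpin, here the divisor, had r = −0.70 and rho = −0.83 (adjusted p = 0.099 and 0.054, exact permutation). What part these counts play in the likeness of the liver miRNAs was not tested.

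Over single miRNAs the scale decided how many looked alike. Of 750 miRNAs listed in all 8 HCC mice, 99.1% had r above 0 to miR-122-5p on the spike-in scale, with a median of 0.772. Per 1000000 UMIs outside the hairpin 74.0% did, with a median of 0.403. These values describe 8 libraries that share their divisor, and the miRNAs named were chosen for their likeness, so they carry no test. On the spike-in scale the 10 highest were miR-187-3p (r = 0.991), miR-365-2-5p, miR-1199-3p, miR-669f-3p, miR-7031-5p, miR-194-5p, miR-28a-3p, miR-152-3p, miR-709 and miR-148a-3p (r = 0.981). Per 1000000 UMIs outside the hairpin they were miR-194-5p (r = 0.989), miR-30a-3p, miR-345-3p, miR-26b-3p, miR-28a-3p, miR-1258-5p, miR-339-5p, miR-152-3p, miR-148a-3p and miR-1843b-5p (r = 0.967). The 4 in both sets are those shown by sequence. miR-122-3p, the product of the same hairpin, ranked 20 and 18 of 750 on these scales.

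The lowest values also depended on the scale. With the spike-ins the 5 lowest were miR-208b-3p (r = −0.52), miR-129-5p, miR-208a-3p, miR-499-5p and miR-7045-3p (r = −0.05), where miR-208a, miR-208b and miR-499 are encoded in myosin heavy chain genes. Per 1000000 UMIs outside the hairpin they were miR-7045-3p (r = −0.98), miR-3097-3p, miR-6967-3p, miR-25-3p and miR-222-3p (r = −0.89). miR-25-3p was also the fifth most abundant miRNA of the non-HCC mice, after miR-16-5p, miR-486b-5p, miR-451a and let-7i-5p. The mean share of miR-16-5p, the most abundant, was 27.6% of miRNA UMIs in non-HCC and 17.8% in HCC mice, or 27.7% and 21.4% once both miR-122 arms were taken out.

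**Figure D5:**
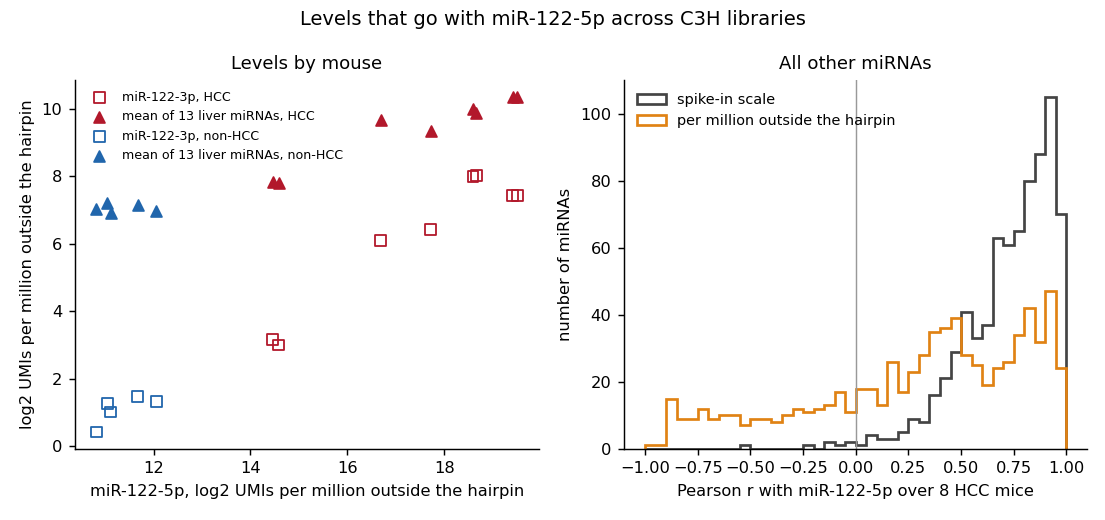
Left, log2 UMIs per 1000000 UMIs outside the hairpin of miR-122-3p (squares) and the mean of 13 liver miRNAs (triangles) against miR-122-5p in each C3H mouse, HCC in red and non-HCC in blue. Right, the number of miRNAs by their Pearson r to miR-122-5p over the 8 HCC mice, with medians of 0.772 on the spike-in scale and 0.403 per 1000000 UMIs outside the hairpin.

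In the F2 libraries miR-122-5p was listed in all 53 and was prominent in each. It had 4972 to 395060 UMIs with a median of 18586, and made up 0.767 to 23.5% of miRNA UMIs with a median of 2.31%. Of the 53 libraries 10 lay above 5% and 5 above 10%, and each of the 53 lay above the highest C3H mouse without HCC. Strain, bleeding site, irradiation history, time to tumor detection and depth all differ between the tables, so the values stand side by side with no test. Its rank by abundance was between 2 and 22 with a median of 6. The shift that the hairpin put on every other miRNA per 1000000 UMIs was between −0.39 and −0.01 in log2, with a median of −0.03.

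The passenger arm was at the edge of detection at that depth. miR-122-3p was listed at 0 in 9 libraries, which had 5278 to 19104 UMIs of 5p, and at 11 to 147 UMIs in the other 44 with a median of 19. In the 44 the ratio of the arms was 162 to 6609 with a median of 1419. Libraries whose 3p fell below the lowest listed value are missing from that range.

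Ranked by Spearman rho to miR-122-5p over the 53 F2 libraries, the liver list spread widely per 1000000 UMIs outside the hairpin. These libraries are repeated bleeds of 15 mice and share their divisor, so the values are descriptions. On that scale miR-101b-3p ranked 1 of 660 (rho = 0.533), miR-192-5p 2 (rho = 0.522), miR-122-3p 4 (rho = 0.487), miR-148a-3p 5 (rho = 0.440), miR-152-3p 6 (rho = 0.421) and miR-194-5p 7 (rho = 0.420). The median over all 660 was −0.01. The rho of miR-122-3p counts 9 libraries where it was listed at 0, and was 0.424 over the other 44. Over all 13 members of the liver list rho ran from −0.08 (miR-193a-3p, rank 490) to 0.533, with a median of 0.238. Of the 13, 4 ranked within the first 7, while miR-215-5p ranked 279 (rho = 0.014). Of the 10 miRNAs most like miR-122-5p in the HCC mice on that scale, all 10 were among the 660, with rho from −0.11 to 0.440 and a median of 0.208. miR-26b-3p, miR-1258-5p and miR-1843b-5p, with r of 0.978, 0.975 and 0.967 in the C3H mice, had rho of 0.01, 0.02 and −0.11 here. On the spike-in scale the median rho was 0.382, and miR-101b-3p, miR-152-3p, miR-148a-3p and miR-192-5p had 0.760, 0.759, 0.753 and 0.726.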

How the data were processed

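Plasma small RNA was sequenced from 13 C3H and 53 F2 libraries. The authors isolated RNA with UniSP2 and UniSP4 added, built QIAseq miRNA libraries, aligned reads to GRCm38, annotated miRNAs by miRBase and collapsed barcodes; FastQC and Bowtie2 are named in the submitters' processing notes without versions. The deposited values are raw UMI counts, not normalized, with 30.6% of C3H entries at 0 and none from 1 to 9.

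Groups and replicate numbers came from the labels. Counts were tested with edgeR 4.0.16 (quasi-likelihood; at least 5 UMIs in at least 5 mice; scale, the mean of both spike-ins, as in the study's methods), arm ratios with limma 3.58.1 over hairpins with both arms at or above 10 UMIs in at least 5 mice, and single values by exact permutation; p-values were adjusted by Benjamini-Hochberg over all features tested. Both fits were checked on simulated data with independent libraries and a fixed spread. That check does not cover the pairs of similar HCC libraries or the wide spread of miR-122-5p in HCC mice. Alternatives were spike-ins alone, total and TMM scales with and without both arms, DESeq2 1.42.0, limma, other filters and pseudocounts, a replicate block, and each mouse left out. Summing similar HCC libraries was added after seeing the data. Members and lists were chosen with earlier results of these data known. The text names both arms, the 10 highest and 5 lowest correlates on each of 2 scales, the 5 hairpins with the strongest rise and fall by p, a liver list of 13 (with the arm ratios of the 3 hairpins that have both arms on it), and the 5 most abundant miRNAs of non-HCC mice. Standard errors of edgeR fold changes were derived from the F statistic.

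Sequences of both miR-122 arms were not used here. The C3H libraries held 9513136 to 14247488 and the F2 libraries 205194 to 3020311 miRNA UMIs, and the F2 depth leaves miR-122-3p near the lowest listed value. No C3H or F2 column was left out.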

Additional observations from a re-analysis of the deposited data

Results flagged for a closer look

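None of the 12 sets of values searched for a mouse far from the rest of its group (levels of both arms, arm ratio, share, and UMIs outside the hairpin with and without the spike-in scale, in HCC and in non-HCC mice) held one by Dixon's criterion, which chance meets in about 1 set of 20. The criterion sets an extreme value against its nearest neighbour, so it cannot flag mice that lie close together. HCC 3 and 7, with the lowest log2 levels of 5p among HCC mice, stood at 16.94 and 17.13. The F2 table, which enters no test, held a library in which miR-122-5p made up 23.5% of miRNA UMIs, the highest of the 53. All 53 F2 libraries lay above every C3H mouse without HCC. The next highest F2 libraries stood at 15.1, 14.4, 11.9 and 11.7%. Which mouse or month these come from is not given by the column names.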

How the results depend on the processing

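The fold changes of both arms and the share of miR-122-5p stayed past the threshold in the same direction under each alternative run for them. The number of miRNAs called was 177 by total UMIs without both arms, 222 by DESeq2 with its own size factors, 183 by DESeq2 with spike-in size factors, 44 by limma and 109 in the main fit. Leaving out 1 mouse gave 44 to 157, with 65 without HCC 2 and 44, 47, 47 and 53 without non-HCC 1, 2, 3 and 4. The median over other miRNAs was 0.17 by TMM, 0.22 by TMM without both arms and 0.37 by total UMIs. UMIs outside the hairpin differed by −0.017 over the spike-ins (p = 0.98, exact permutation), and by −0.56 to −0.40 with 1 mouse left out. Of the 10 nearest correlates 4 were shared per 1000000 UMIs outside the hairpin and 5 by Spearman rho.

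The arm ratio of miR-122 passed limma's adjusted threshold with a pseudocount of 5 UMIs (1.20, adjusted p = 0.033), with entries of 0 set to 9 (1.01, adjusted p = 0.038) and for hairpins with both arms at or above 20 UMIs (1.01, adjusted p = 0.030), where 42, 55 and 36 hairpins passed. With similar libraries summed 5 hairpins passed, and with 1 mouse left out 1 to 31: 6, 6, 31 and 12 without HCC 1, 6, 7 and 8, and 13, 7, 5, 1 and 10 without non-HCC 1 to 5. The cause was not tested.

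Replicate numbers are shared by name only: same-numbered mice had correlations of their deviations from −0.05 to 0.21 over 699 miRNAs, and 1 of 5 matched its own number best. HCC 6, 7 and 8 have no non-HCC mouse of the same number. A block by number therefore compares only HCC 1 to 5 with non-HCC 1 to 5. With the replicate number as a block edgeR called 145 miRNAs, limma 0 hairpins (83 at an unadjusted p under 0.05), and the arm ratio differed by 0.77 (p = 0.0625 by exact permutation within numbers, the smallest that 32 arrangements can give; limma adjusted p = 0.35). The fold change of miR-215-5p was −0.64 by TMM and −0.58 by DESeq2 with its own size factors (adjusted p = 0.0040), turned positive with UniSP4 alone (0.042) and the block (0.00014), and was −0.16 to 0.12 with 1 mouse left out. Depth limits miR-122-3p, of which non-HCC mice had 17 to 37 UMIs. Whether the highest counts of miR-122-5p level off was not tested.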
